A study of Mus musculus with 4 samples.

Results

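The 10 genes described here encode Kruppel-like factors, taken as a named subset of the family, with earlier results of these data already known: Klf2, Klf3, Klf4, Klf5, Klf6, Klf7, Klf9, Klf10, Klf11 and Klf13, out of 21887 protein-coding genes. Their accessible chromatin was taken as every listed region that shared at least 1 base with the gene or with the 50 kb on either side of it, which gave 89 of the 74777 regions in the list. The regions came from ATAC-seq, in which the transposase Tn5 cuts and tags open DNA, on stem cells of the mouse hair follicle, taken from back skin at postnatal day 30. The mice were female, and the cells were sorted as positive for GFP, CD34 and CD49f and negative for Sca-1. Both genotypes carried K14-H2BGFP, a histone-GFP reporter driven by the keratin 14 promoter, and Foxc1 fl/fl, floxed alleles of a forkhead factor gene. The knockout also carried K14Cre, a recombinase under the same promoter, which is active across the basal epithelium and not in the stem cells alone. Each genotype was 1 library sequenced in 2 runs, and a single list of coordinates served all 4 runs. No region could be given to a genotype, so the knockout and the control were not compared, and all statements below describe the joint list without a test. The list holds no read counts, so the depth behind a peak is unknown, and a peak is known by its position and width alone.

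Kruppel-like factors are transcription factors with zinc fingers at the carboxyl end that bind GC-rich DNA, either GC boxes or CACCC sequences, the same sites that Sp factors bind. The family has activators such as Klf2, Klf4, Klf5, Klf6 and Klf7, repressors that recruit the corepressor CtBP such as Klf3, and members that recruit Sin3A such as Klf9, Klf10, Klf11 and Klf13. In skin, Klf4 is known for its role in building the epidermal barrier and Klf5 for its expression in proliferating basal keratinocytes.

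As a check of the label, all 10 fixed marker genes of hair follicle stem cells had a peak within 1 kb of a gene bound, as did 7 of 8 basal keratinocyte markers, all but Trp63. The check looks at the outer bounds only, so an open start inside a gene, at Trp63 or any other marker, would be missed. The counts were 2 of 7 for immune cells, with Ptprc, Cd3d and Cd3e among those without, 2 of 6 for endothelial cells, 2 of 6 for dermal fibroblasts and 4 of 6 for melanocytes, against 57.6% of all protein-coding genes.

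The promoter sequences of the Klf genes show where the family's own binding letters lie in its open starts. RefSeq (GRCm38.p6) gave a start and promoter for 8 of the 10 genes; Klf5 and Klf10 were not among them. The 250 bases before the start are printed for 5 genes. Klf6 had the widest peak and Klf13 the most peaks, Klf3 had the most GC boxes and Klf9 none, and Klf4 is the barrier factor. Capitals mark GC boxes (GGGCGG) and the shorter CACCC core (CACCC) on either strand, which can overlap.

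Klf6, chr13:5861239-5861488, plus strand: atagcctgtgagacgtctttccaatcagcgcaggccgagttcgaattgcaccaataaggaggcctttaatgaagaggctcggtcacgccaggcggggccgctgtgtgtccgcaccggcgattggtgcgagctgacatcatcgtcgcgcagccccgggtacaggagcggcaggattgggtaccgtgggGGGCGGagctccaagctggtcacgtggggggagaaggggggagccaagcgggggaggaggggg
Klf13, chr7:63938916-63939165, minus strand: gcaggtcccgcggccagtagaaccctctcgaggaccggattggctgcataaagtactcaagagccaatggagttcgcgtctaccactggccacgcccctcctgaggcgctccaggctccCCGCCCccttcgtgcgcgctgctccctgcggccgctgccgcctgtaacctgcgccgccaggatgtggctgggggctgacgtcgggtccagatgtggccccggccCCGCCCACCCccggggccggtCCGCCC
Klf3, chr5:64803271-64803520, plus strand: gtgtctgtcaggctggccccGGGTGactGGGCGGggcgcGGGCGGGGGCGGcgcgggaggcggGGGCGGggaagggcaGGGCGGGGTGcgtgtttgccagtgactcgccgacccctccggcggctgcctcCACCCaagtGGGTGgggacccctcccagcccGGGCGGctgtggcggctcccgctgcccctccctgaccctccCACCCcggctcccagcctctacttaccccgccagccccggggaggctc
Klf9, chr19:23140976-23141225, plus strand: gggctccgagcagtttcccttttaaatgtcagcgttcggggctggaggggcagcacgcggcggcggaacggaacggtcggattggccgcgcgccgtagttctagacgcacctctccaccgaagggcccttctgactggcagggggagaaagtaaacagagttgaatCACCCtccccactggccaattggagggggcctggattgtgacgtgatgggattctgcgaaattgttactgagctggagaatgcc
Klf4, chr4:55532476-55532725, minus strand: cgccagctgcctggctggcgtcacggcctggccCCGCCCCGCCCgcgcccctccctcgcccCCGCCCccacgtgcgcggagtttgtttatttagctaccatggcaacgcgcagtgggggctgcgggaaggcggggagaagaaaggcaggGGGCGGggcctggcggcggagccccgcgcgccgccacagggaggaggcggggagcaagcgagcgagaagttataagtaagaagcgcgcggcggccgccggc

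GC boxes were found on either strand in 7 of the 8 promoters, counted from 250 bases before to 50 after the start. All except Klf9 held at least 1, against 46.2% of 21263 promoters of protein-coding genes, some of which have more than 1 promoter in the table. Klf3 held 6, Klf4 and Klf11 4 each, Klf13 3, Klf2 2, and Klf6 and Klf7 1 each. The long CACCC box, CCACACCC, was in none (0) of the 8 and in 3.63% of all promoters. The CACCC core was in 5 of 8, led by Klf3 with 5 matches and Klf7 with 3, against 59.5% of all promoters. The promoters were GC-rich: the 250 bases before the start were 71.4% G or C in the median, against 55.6% over all promoters. The range ran from 59.2% at Klf7 and 59.6% at Klf9 to 78.4% at Klf3.

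CCAAT boxes (CCAAT), bound by the factor NF-Y, divided the promoters differently. Klf6 held 4, Klf9 3, and Klf11 and Klf13 2 each, while Klf2, Klf3, Klf4 and Klf7 held none, against 38.2% of all promoters with at least 1. An E-box (CACGTG) was present once each in Klf4, Klf6 and Klf11, against 7.84% of all promoters. The Klf9 promoter alone of the 8 held an AP-1 site (TGANTCA), the binding site of Fos and Jun, and a forkhead core (TGTTTAC), which were in 6.99% and 3.01% of all promoters. The AP-1 match overlaps the CACCC core capitalised in that sequence. The TATA box (TATAAA), the CRE (TGACGTCA) and the CArG box had no match in the 8, against 12.6%, 2.23% and 1.52% of all promoters. Each motif was searched on both strands. Letter matches describe the sequence and do not show that a factor was bound.

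The 8 genes with an annotated start were all open there, and the other 2 were open at a bound that may or may not be the start. The start base lay inside a peak in 8 of 8, against 53.4% of protein-coding genes in the promoter table. A peak within 1 kb of the start was likewise present in 8 of 8, against 58.3%. Klf5 had a peak over its lower-coordinate bound and Klf10 over its upper-coordinate bound, so a peak at either bound was present in 10 of 10 genes, against 57.6% of all protein-coding genes. In all 8 genes a single peak held the whole 300-base promoter, against 49.3%. The printed sequences thus lie wholly inside listed peaks, GC boxes included. Klf2, Klf6 and Klf13 also had a peak within 1 kb of the other bound, 3 of 10 genes against 8.14% of all. At Klf6 this was the same peak that covers the start. Klf2 is 2593 bp long, against a median of 17.2 kb for all protein-coding genes, and the share was not matched for length.

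**Figure D1:**
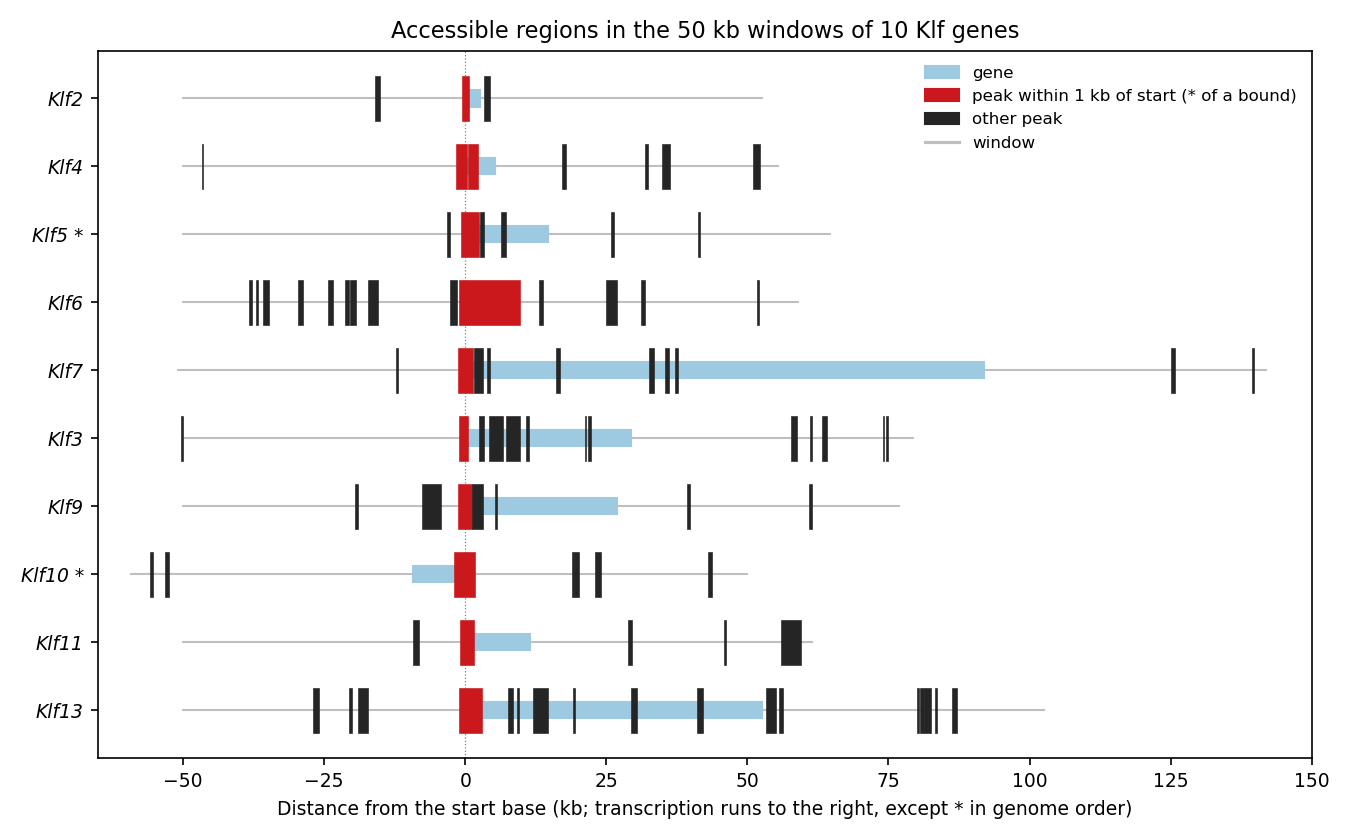
Peaks in the windows of the 10 genes, with distance from the start base in kb on the x axis and 1 gene per line; grey lines are windows, blue bars genes, red blocks peaks within 1 kb of the start, and black blocks other peaks. Klf5 and Klf10, marked with an asterisk, are drawn in genome order from the bound that had a peak. Every gene has a red block at 0, and that of Klf6 runs past the end of the gene.

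Among the activators, Klf6 was the most open. Klf6, an early response gene, lies on chromosome 13 from 5861489 to 5870393 (mm10). One peak of 10794 bp, from 5860413 to 5871206, covered all 8.905 kb of it, with 1076 bp before the start and 813 bp past the far bound. Peaks this wide or wider numbered 17 in the list outside the mitochondrial chromosome. Among 8823 peaks that cover an annotated start it ranked 6. Of 14510 protein-coding genes at least as long as Klf6, only 2 lay wholly inside a single peak, Klf6 and Ifrd1, the latter named after its value was seen. Further peaks stood on both sides of Klf6: 9 before the start and 4 beyond the gene. Of those before it, 8 formed a chain (gaps under 12.5 kb) that spanned 22.8 kb, with near edges 37.8 to 15.4 kb before the start, and 1 of these lay over the long non-coding RNA gene Gm35464. Peaks covered 20.9% of the Klf6 window, at percentile 99.5 of all protein-coding genes.

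Klf4 had 7 peaks, of which 2 met near the start. The peak over the start, 2060 bp wide, reached 1708 bp before it and 351 bp into the gene, and a second of 1727 bp began 548 bp inside. The remaining peaks lay mostly past the gene: 4 stood 17.1, 31.8, 34.8 and 51.0 kb downstream of the start, and 1 of 201 bp stood 46.5 kb before it. No other protein-coding gene lay in the Klf4 window, so each of these peaks was nearest to Klf4 among protein-coding genes. The start peak also overlapped the long non-coding RNA gene Gm12506, and to which of the 2 genes the opening belongs cannot be told apart.

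Klf5 had 6 peaks, of which 4 formed a chain of 10.4 kb. Its widest, at 3078 bp, lay from 99297975 to 99301052 over the lower bound of the gene, which runs from 99298691 to 99313412 on chromosome 14. A peak of 622 bp stood outside that bound and peaks of 723 and 791 bp inside the gene. The other 2, of 572 and 253 bp, lay beyond the upper bound.

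Klf7, the longest of the 10 genes at 92.9 kb, had 10 peaks, 7 of them touching the gene. The peak over its annotated start was 2702 bp wide and reached 1351 bp before and 1350 bp after that base. The 6 other peaks in the gene lay on the start side, the farthest at 41.2% of the gene length, and the rest of the gene held no peak. The start peak overlapped the long non-coding RNA gene Gm35880. Klf2, by contrast, a factor best known from endothelial cells and lymphocytes, had 3 peaks, the fewest of the 10 in windows of this size. With 100 kb either side it had 10 and Klf9 had 9, and with 20 kb it had 3, as did Klf4, Klf10 and Klf11. The 3 peaks of the 50 kb window were similar in width, at 1007, 1116 and 1063 bp, and lay 15.0 kb before the start, over the start, and 3.38 kb after it. The Klf2 start peak was narrower than the 1348 bp median of all start peaks.

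Klf3, the CtBP-recruiting repressor, had 13 peaks. A chain of 7 ran for 23.4 kb from the start through the gene, and its widest peaks were not at the start. The start peak measured 1674 bp, while peaks of 2434 and 2518 bp began 4.24 and 7.21 kb after the start. A predicted protein-coding gene, Gm38457, overlaps the start of Klf3 and ends inside the 2434 bp peak, and 5 of the 13 peaks were nearer to a bound of Gm38457 than to one of Klf3. A separate chain of 5 peaks, of 201 to 968 bp, lay beyond the gene and began 57.8 to 74.5 kb after the start.

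The Sin3A-recruiting members were open over a wide range. Klf13, known as a regulator of chemokine expression in T cells, had 17 peaks, the most of the 10 genes, in a window of 152.6 kb. Its start peak, at 4230 bp, ran 1180 bp before and 3049 bp after the start. It belonged to a chain of 9 peaks spanning 57.5 kb, the full length of the gene. One peak of 2575 bp stood 12.1 kb inside the gene, and a chain of 5 lay beyond the gene, beginning 80.0 to 86.2 kb from the start. Of the 17, 4 were nearer to E030018B13Rik, a small protein-coding gene within Klf13, than to a bound of Klf13.

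Klf9, a gene induced by glucocorticoids and thyroid hormone, had 7 peaks, 5 of them in a chain of 25.2 kb around the start. The peak over the start was 2428 bp wide. The widest, at 3349 bp, lay 4.35 kb before the start, over the long non-coding RNA gene 2410080I02Rik, and a peak of 1807 bp began 1.28 kb inside Klf9. Its promoter sequence, printed above, is the one without a GC box.

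Klf10 and Klf11 encode the TGF-beta-inducible early proteins. Klf10 had 7 peaks, with 1 of 3812 bp over its upper bound, the widest at a start or bound after those of Klf6 and Klf13. This peak overlapped the long non-coding RNA gene Gm35248. No other peak touched Klf10, and the 2 peaks at the far lower side were nearer to Odf1, a gene outside the window. Klf11 had 5 peaks, 2 of them nearest to Klf11: the start peak of 2582 bp and one of 1003 bp, 8.18 kb before the start. The other 3 were nearer to Cys1 (1 peak) or to Rrm2 (2 peaks), including the widest in the window, 3546 bp at the bound of Rrm2, which encodes a ribonucleotide reductase subunit.

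**Figure D2:**
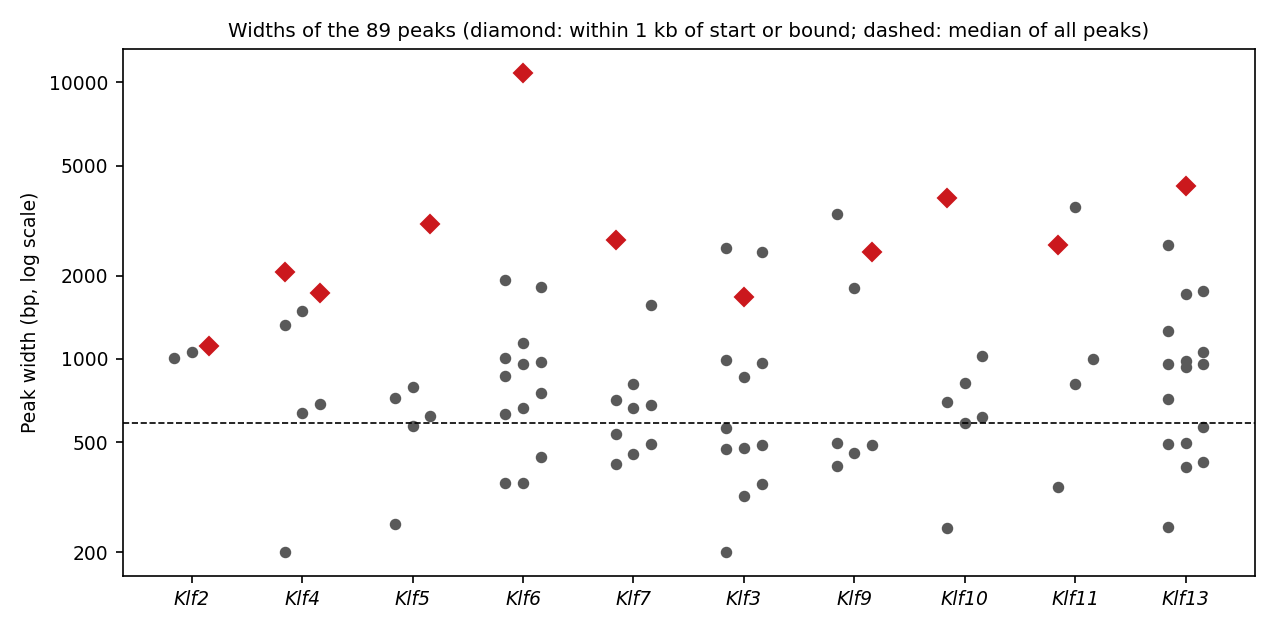
Width of each of the 89 peaks in bp (log axis) for the 10 genes, with diamonds for peaks within 1 kb of the start or, for Klf5 and Klf10, of a bound; the dashed line is the median of all listed peaks, 587 bp. The widest peak is a diamond in 7 of 10 genes, all but Klf3, Klf9 and Klf11. The same share over all protein-coding genes was not counted. Peaks over annotated starts are wide in general, with a median of 1348 bp.

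Across the 89 peaks, the median width was 812 bp (quartiles 494 and 1331 bp), against 587 bp for the whole list. The 11 peaks within 1 kb of the start, or of a bound for Klf5 and Klf10, had a median of 2582 bp, and the 78 others 704.5 bp. These 11 held 33.9% of the 106.8 kb covered. Peaks over 2 kb made up 13 of the 89, or 14.6%, against 4.94% of the list, and 5 of the 13 were not among the 11. Of these 5, the peaks of 3546, 3349 and 2434 bp covered a bound of another gene: Rrm2, 2410080I02Rik and Gm38457. Of the 78, 22 touched the Klf gene and 56 lay outside it, among them the peaks of Klf2 and Klf13 within 1 kb of the far bound. Of 20 peaks inside genes of known strand and away from the start, 16 (80%) had their midpoint before the middle of the gene, against 51.6% of such peaks over all protein-coding genes with an annotated start. The 4 exceptions were 2 peaks each in Klf3 and Klf13. The 20 came only from Klf3, Klf7 and Klf13, with 6 each, and Klf9, with 2. Peaks of the same gene are not independent, so the share of 80% describes these few genes.

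The peaks over the start were wide compared with those of other genes. Widths ranged from 1116 bp at Klf2 and 1674 bp at Klf3 to 4230 bp at Klf13 and 10794 bp at Klf6. They stood at percentiles 33.9, 68.8, 99.1 and 99.9 of the 8823 peaks over annotated starts, whose quartiles were 974 and 1818 bp. Klf4, Klf9, Klf11 and Klf7 fell between, at percentiles 82.6, 90.2, 92.5 and 93.7. Thus 6 of the 8 were wider than the upper quartile. Reach on each side was compared with medians over all covered starts, in which a peak over several starts counts for each. On the side before the start, 7 of the 8 reached further than the median of 637 bp, with Klf2 at 507 bp the exception. After the start, Klf2, Klf3 and Klf4 reached 608, 563 and 351 bp, less than the median of 682 bp, and the other 5 reached further.

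**Figure D3:**
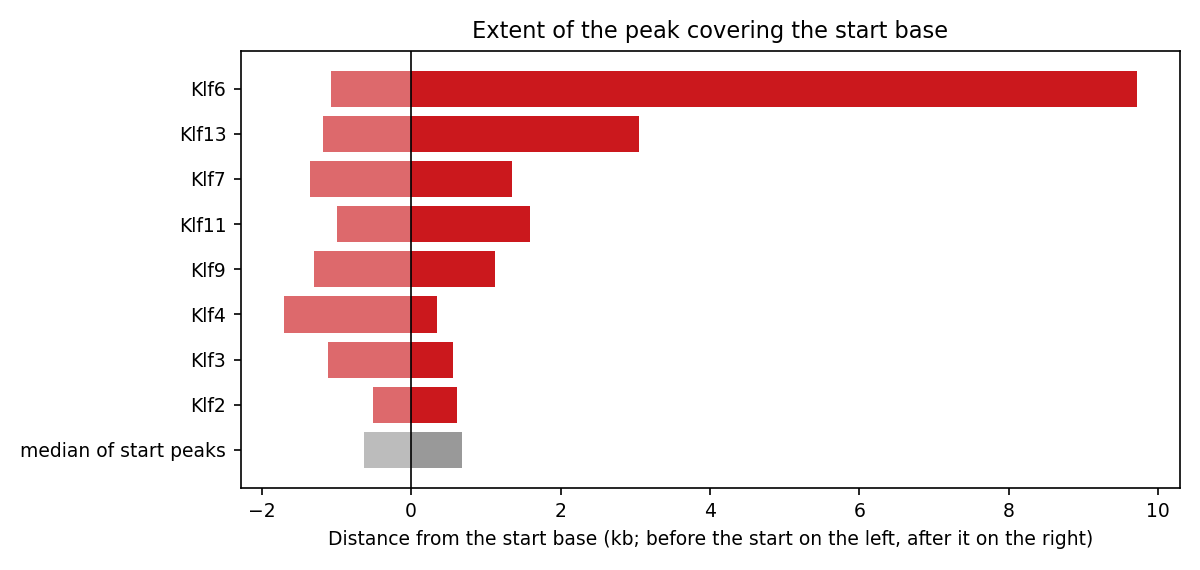
Extent in kb of the peak covering the start base, before the start on the left and after it on the right, for the 8 genes with an annotated start. The grey bar is the median over all covered starts of protein-coding genes, 637 bp before and 682 bp after. Klf6 extends 9717 bp and Klf13 3049 bp after the start, while Klf4 extends mostly before it.

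The surroundings held more open chromatin than those of the median gene for most members. Peak counts were 3 for Klf2, 5 for Klf11, 6 for Klf5, 7 each for Klf4, Klf9 and Klf10, 10 for Klf7, 13 for Klf3, 14 for Klf6 and 17 for Klf13. The median was 7, against 5 for all protein-coding genes (quartiles 2 and 8). More peaks than the median gene were found in 8 of 10 windows, against 46.5% of all genes. Long genes have longer windows, so density was compared as well. Peaks per 100 kb exceeded the median gene in 9 of 10, against 50% of genes, all but Klf2. The densities were 2.92 for Klf2, 4.49 for Klf11, 5.18 for Klf7, 5.23 for Klf5, 5.52 for Klf9, 6.41 for Klf10 and 6.65 for Klf4. Klf3, Klf13 and Klf6 stood apart from these at 10.05, 11.1 and 12.9, with no member between 6.65 and 10.05. That order held for the 50 kb windows with peaks of every width counted. With 100 kb either side Klf3, at 6.98, lay below Klf10 and Klf5, at 7.17 and 7.92. With 20 kb Klf9 and Klf5 reached 8.97 and 9.14 against 10.1 for Klf3. When only peaks wider than the list median counted in the 50 kb windows, Klf3, at 4.64, lay below Klf4, at 5.70. Klf6 and Klf13 had the highest densities at all 3 window sizes. The share of the window inside peaks also exceeded the median gene's 3.16% in 9 of 10, against 50% of genes, with Klf2 just under it at 3.11%. That share was 13.0% at Klf13, 9.18% at Klf3, between 7.14% and 7.72% at Klf4, Klf9, Klf10 and Klf11, 5.26% at Klf5 and 4.69% at Klf7.

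Peaks also differed in whether the nearest gene bound, measured from the peak midpoint, was that of the Klf gene or of a neighbour. For 74 of the 89 the nearest protein-coding bound was that of the Klf gene, including every peak in the windows of Klf2, Klf4, Klf5, Klf6 and Klf7. The other 15 were nearer to a bound of Gm38457, E030018B13Rik, Rrm2, Cys1, Odf1 or Smc5. All of those nearer to E030018B13Rik lay inside Klf13, and most of those nearer to Gm38457 lay inside Klf3. When non-coding genes counted as well, 27 of the 89 were nearest to a bound of the Klf gene, with Klf6 at 4 of 14 and Klf7 at 1 of 10. Each window is built around its Klf gene, and neither share was counted for the windows of other genes. Long non-coding RNA genes were touched by 19 of the 89 peaks, or 21.3%, against 12.1% of all listed peaks. The miRNA genes within Klf7 (Mir6899) and Klf9 (Mir1192) were touched by none (0).

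Set beside related genes, the 10 Klf genes lay between the remaining family members and the early response genes in median peak density and open share. The other 7 Klf genes had a start peak, or a bound peak where no start was given, in 4 of 7 cases, Klf1, Klf8, Klf15 and Klf16, close to the 57.9% of all protein-coding genes by the same rule. Klf12, Klf14 and Klf17 had none, and the Klf17 window held 0 peaks. Their median density was 2.56 peaks per 100 kb, with 0.978% of the window open. Both medians are the values of Klf8, a gene of 173587 bp with 7 peaks in its long window. Peaks per window differed less: the median was 6 for these 7 genes, 7 for the 10 Klf genes and 5 for all protein-coding genes. Sp genes, whose proteins share the GC box, had a start or bound peak in 8 of 9 cases, all but Sp7, with a median of 3.62 peaks per 100 kb and 2.80% open. The 10 Klf genes had 5.96 and 7.44%. The 14 AP-1 and immediate early genes, among them Fos, Jun, Junb, Egr1 and Ier2, all had a start or bound peak, with 9.95 peaks per 100 kb and 13.5% open. Klf6 lay within the range of this last list, which reached 13.6 peaks per 100 kb at Ier5 and 23.6% at Fosb, whose widest peak of 11665 bp exceeded that of Klf6. The windows of Sp1 and Sp7 overlap, as do those of Sp2 and Sp6 and those of Klf1 and Junb, so a peak can count for both genes. These differences between lists were not tested.

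**Figure D4:**
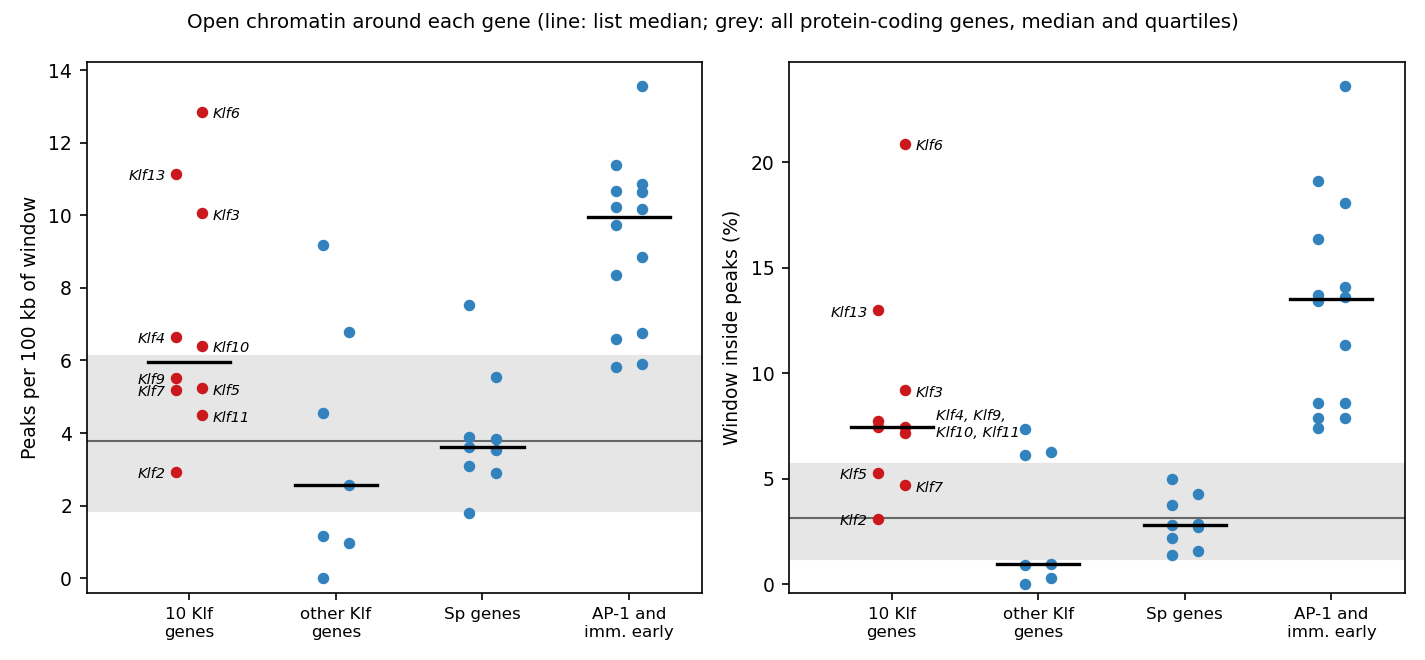
Peaks per 100 kb of window (left) and percent of the window inside peaks (right), 1 point per gene, for the 10 Klf genes and 3 comparison lists; black lines are list medians, and the grey line and band are the median and quartiles of all protein-coding genes. Klf6, Klf13 and Klf3 lie highest of the 10 in both panels, and Klf2 lowest.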

How the data were processed

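ATAC-seq regions were deposited by the authors as 1 list of coordinates (chromosome, start, end) for all 4 runs, with no score, count or sample. The build was mm10 and the tools were Bowtie2, MACS2 and bedtools, per the submitters' processing notes. Their versions and settings, any Tn5 offset and whether runs were pooled before calling were not given in the sources used here. All these can change where a peak begins and ends, and so its width. Starts were converted to 1-based positions. No column of per-sample values was left unused (0).

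Gene bounds, starts, strands and promoters came from RefSeq tables of GRCm38.p6, whose coordinates are those of mm10. The table of starts holds 17492 protein-coding genes; for other genes either bound was used. An annotated start need not be the one used in these cells. A peak counted when it shared 1 base or more with a window. Percentiles are mid-ranks over all protein-coding genes. Chains joined peaks with gaps under 12.5 kb. The counting was tested on simulated data. Python 3.11.15, pandas 2.3.3 and numpy 2.4.6 were used. Groups followed the genotype labels, with resequenced runs counted as the same library.

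No test was made, since no value belongs to a sample. All 10 Klf genes, the listed comparison genes and the neighbours in the windows were named by rule. The members and lists were chosen with earlier results of these data known. One immune marker gene of the list is not reported here. The CACCC core was added after the promoters had been seen.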

Additional observations from a re-analysis of the deposited data

How the results depend on the processing

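The number of peaks in the 10 windows, 89, depended on the reach. It was 54 with 20 kb either side, 143 with 100 kb and 59 for peaks wider than the list median. Counted by midpoint it was 88, within 1.5 times. Leaving out peaks of the smallest width in the list gave 89 again and could not do otherwise, since none of the 89 had that width. For single genes, 15 of 50 such recounts moved by over 1.5 times. Of the 15, 6 moved with 20 kb, 5 with 100 kb and 4 with peaks wider than the list median. With 20 kb the median of the Klf genes was 5.5 peaks against 3 for all genes, and 6 of 10 had more than 3. With 100 kb it was 14 against 9, and 9 of 10 had more than 9. The share of all genes above their median was not counted at these 20 and 100 kb reaches. Measured to the nearest bound of any annotated gene, non-coding ones included, 27 peaks rather than 74 were nearest to the Klf gene. Start peaks were sought at either bound for Klf5 and Klf10, which have no annotated start. Such a peak was present in 10 of 10 genes within 500 bp, within 2500 bp and over the base itself. The shares of all protein-coding genes by the same rules were 56.0%, 61.4% and 51.8%. By peak midpoint within 1 kb it was present in 9 of 10, against 55.9% of all. The exception was Klf6, whose midpoint lies 4.32 kb into the gene. Over the 30 genes of the 3 comparison lists, start peaks numbered 26, and 19 by midpoint, against 57.9% and 55.9% of all protein-coding genes. The settings for these lists were added after the data were seen. The median longest chain was 4.5 peaks, 3.5 when joined within 5 kb and 6 within 25 kb. Without the 50 bases after the start the same 7 promoters held a GC box, against 42.6% of all promoters. No paired analysis was possible because the list has no values per sample, and no run could be left out for the same reason. Without counts, a weak site cannot be separated from one missed at low depth.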
